A study of Homo sapiens with 4 samples.

Results

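The genes described here are those of the proteins that read or erase N6-methyladenosine (m6A). They are the YTH domain proteins YTHDF1, YTHDF2, YTHDF3, YTHDC1 and YTHDC2, the IGF2BP family IGF2BP1, IGF2BP2 and IGF2BP3, and the demethylases FTO and ALKBH5. A listed m6A site was assigned to one of these 10 genes when it lay in an exon or intron of the gene on the same strand. Of 18789 listed sites, 2 met this rule, and both lay in ALKBH5. The other 9 genes had 0 listed sites each, and 0 sites lay on the opposite strand of the 10 gene bodies.

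The sites came from miCLIP2, in which an antibody against m6A is crosslinked to RNA fragments and the modified position is read from where reverse transcription stops. The RNA was polyadenylated RNA of untreated C643 cells, labelled WT (wild type) in all sample titles. C643 is a human cell line that was established from an anaplastic carcinoma of the thyroid. The single group had 3 biological replicates, sequenced as 4 libraries because replicate 1 was split into 2 technical libraries. All replicates were pooled into 1 list, so no value has a spread between replicates, no test between samples was possible and the read depth behind a site is unknown. The list gives no level of expression, so the cell line could not be checked against marker genes, and a gene without a site cannot be told apart from a gene with too few reads to call one. Intervals in the text are 95% Wilson intervals and cover counting only.

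The m6A mark is placed on messenger RNA by a methyltransferase complex built around METTL3 and METTL14, mostly at the DRACH motif (D is A, G or T, R is A or G, and H is A, C or T). Reader proteins bind the marked RNA. The cytoplasmic YTHDF proteins are known for shortening the life of marked transcripts, the nuclear YTHDC1 for acting on splicing and export, and YTHDC2 is a helicase needed in the germ line. The IGF2BP proteins bind and stabilise many of their target messages. FTO and ALKBH5 belong to the AlkB family of iron-dependent dioxygenases and remove methyl groups from RNA.

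The ALKBH5 sites are shown as the reference sequence of GRCh38 on the plus strand, 5′ to 3′, with the pentamer around the methylated A in capitals, because they are the entire set of listed sites in these genes. The first window is chr17:18184993-18185013 and the second chr17:18208331-18208351.
ALKBH5 exon 1: gggaagcgTGACTgtgctcag
ALKBH5 exon 4: tcctcagaGGACTgctctgag

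ALKBH5 lies on chromosome 17 from 18183078 to 18209954. Its chosen transcript was 3159 nt long in 4 exons, with a 5′ UTR of 416 nt, a coding sequence of 1185 nt including the stop codon and a 3′ UTR of 1558 nt. Both listed sites were in coding sequence, and 0 were in a UTR or an intron. Of the 3 annotated ALKBH5 transcripts, 1 holds the first site in an exon, where it is coding. All 3 hold the second, which is coding in 2 and in a noncoding exon in the other. The sites were 370 nt apart in the chosen spliced transcript and 23338 nt apart in the genome.

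The first site, at position 18185003, was in exon 1, which is 1186 nt long and holds most of the coding sequence. It lay at TGACT, 759 nt after the first base of the start codon and 423 nt before the stop codon. The modified A was the first base of codon 254, which encodes threonine. It was 11 nt from the first base of the next exon. Of 7460 coding sites in all host transcripts, 1228 were within 50 nt of an exon junction (16.5%, 15.6 to 17.3), so a coding site this near a junction belonged to the smaller part of the list.

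The second site, at position 18208341, was in exon 4, the last exon. It lay at GGACT, 53 nt before the first base of the stop codon, and the modified A was the second base of codon 377, which encodes aspartate. The nearest junction was 123 nt away. Over all host transcripts 33.3% of 17803 exonic sites were within 200 nt of the stop codon and 76.6% were in the last exon, and the second site had both positions while the first had neither.

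The prediction score of m6Aboost, a fraction that is higher where the classifier was more certain, was 0.732 for the exon 1 site and 0.850 for the exon 4 site. Of all listed sites, 44.6% scored below the first and 75.7% below the second. The last 12790 rows of the list, which hold both sites, give scores with fewer digits than the 5999 rows before them, for a reason not stated. Within those rows the shares were 45.2% and 76.1%, and the median score was 0.751 there and 0.760 in the earlier rows. Among coding sites alone, whose median score was 0.706, these shares were 57.1% and 86.6%. The scores also followed the order of the pentamers, with a median of 0.751 over 1230 exonic sites at TGACT and 0.836 over 3808 at GGACT. The classifier was given both sequence and transcript region, and its score is therefore no independent measure of either.

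**Figure D1:**
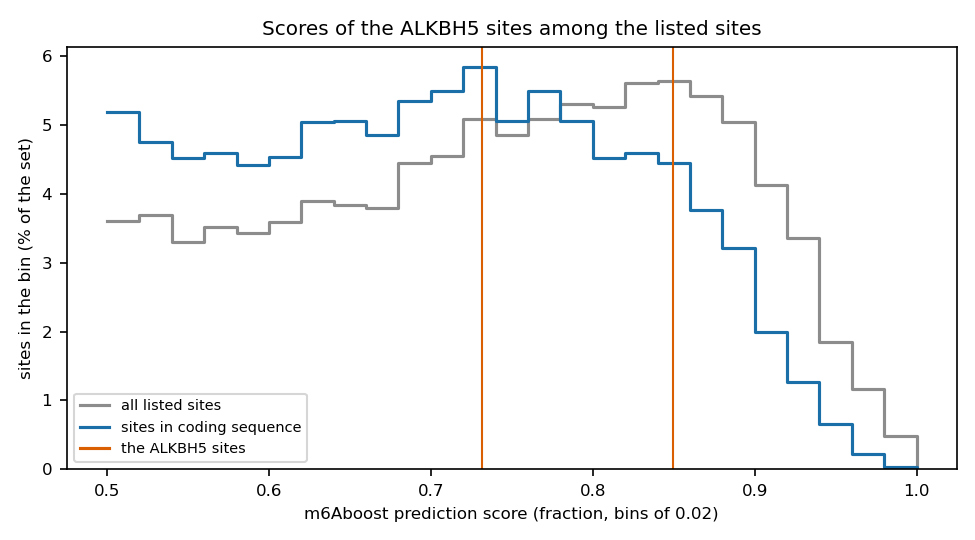
The horizontal axis is the prediction score in bins of 0.02, and the vertical axis is the percentage of each set of sites that falls in a bin, for all 18789 listed sites (grey) and for the 7460 coding sites (blue). The orange lines mark the ALKBH5 sites at 0.732 and 0.850, of which the second lies above 86.6% of the coding sites.

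Most motifs of ALKBH5 were not listed. Its transcript held 40 DRACH motifs, of which 2 were listed (5.00%, 1.38 to 16.5), against 7.33% of the DRACH motifs in all protein-coding transcripts with a site. The 38 unlisted motifs included 4 in the 5′ UTR and 16 in the 3′ UTR. The interval for ALKBH5 includes the share over all host transcripts.

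ALKBH5 held 4 GGACT motifs, of which 1 was listed, against 25.8% of the GGACT motifs of transcripts with a site. The unlisted 3 were in exon 1 at codon 63, 583 nt from the exon's end, and in the 3′ UTR 834 and 1426 nt past the first base of the stop codon. Across host transcripts the share of GGACT motifs that were listed was 23.0% in coding sequence, and in UTRs it was 31.5% on the 3′ side and 14.2% on the 5′ side. It was 53.9% within 200 nt of the stop codon, where the listed ALKBH5 motif lay.

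Exon 1 of ALKBH5 held 13 DRACH motifs, and the listed one was the nearest of them to the exon's end. Several of the unlisted ones had the sequence GGACC. Across host transcripts 9.02% of GGACC motifs were listed, against 10.7% of TGACT motifs. The exon 4 site had a close unlisted neighbour on each side, both at GAACT, 33 nt upstream in the coding sequence and 79 nt downstream in the 3′ UTR. The GC content of the 201 nt around the site was 55.2% for exon 1 and 62.2% for exon 4. Around the unlisted GGACT motifs of ALKBH5 it was 70.6% at codon 63, and 40.8% and 46.3% in the 3′ UTR.

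The other eraser, FTO, had no listed site and held the most DRACH motifs of the 10 genes. Of protein-coding genes with 140 or more DRACH motifs, 8.78% had a site. Its chosen transcript of 11573 nt held 217 DRACH motifs, 184 of them in a 3′ UTR of 10026 nt. All 5 of its GGACT motifs were in the 3′ UTR, the nearest 2031 nt past the stop codon. Within 200 nt of the stop codon FTO held 9 DRACH motifs and ALKBH5 held 7.

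The 3 YTHDF genes had no listed site either. They share a gene structure of 5 exons, in which exon 4 is very long and holds most of the coding sequence (1521 nt in YTHDF1, 1584 in YTHDF2 and 1599 in YTHDF3). YTHDF1 held 59 DRACH motifs, YTHDF2 also 59 and YTHDF3 92. Of their coding motifs, 25, 35 and 35 in the same order were more than 100 nt from a junction. Over all protein-coding transcripts, with or without a site, coding DRACH motifs more than 100 nt from a junction were listed in 2.50% of cases (2.43 to 2.57), and nearer ones in 0.437% (0.418 to 0.457).

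A coding GGACT occurred at the same place in all 3 YTHDF genes, in exon 4, 284 nt from its end. It encodes aspartate at codon 457 of YTHDF1, 478 of YTHDF2 and 484 of YTHDF3, and it was unlisted in each. The 21-nt windows of YTHDF1 and YTHDF2 were identical at 15 bases, those of YTHDF2 and YTHDF3 at 16, and those of YTHDF1 and YTHDF3 at 11. These counts include the GGACT itself, which is identical because the windows were chosen for it. Over all protein-coding transcripts 10.3% of 10857 coding GGACT motifs more than 100 nt from a junction were listed (9.78 to 10.9). The listed share of all GGACT motifs was 4.30% in the GC decile of YTHDF1, 0.870% in that of YTHDF2 and 0.0814% in that of YTHDF3. These windows are printed because the paralogues share the motif and its place, and they were chosen after the values were seen. They are reference sequence of GRCh38 with the pentamer in capitals, chr20:63202560-63202580 on the minus strand and chr1:28743693-28743713 on the plus strand.
YTHDF1 exon 4: tcccccgtGGACTacggcacc
YTHDF2 exon 4: tctgctgtGGACTacaacaca

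YTHDF2 also held a pair of GGACT motifs in the 3′ UTR, 82 and 162 nt past the first base of the stop codon. Both were unlisted. The GC content of the 201 nt around them was 37.8% and 31.3%. It was 62.2% around the listed GGACT of ALKBH5, and 65.2% around the unlisted GGACT in the 3′ UTR of IGF2BP2. In the GC decile of YTHDF2 the listed share of all GGACT motifs was 0.870%. The 53.9% given above for GGACT within 200 nt of the stop codon covers only transcripts with a site.

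YTHDC1 and YTHDC2, which share the YTH domain and differ in most of the rest, had 17 and 30 exons. YTHDC1 held 115 DRACH motifs, with 66 in its 3′ UTR, and YTHDC2 held 131, with 90 in coding sequence. Each had 4 GGACT motifs. YTHDC2 had 2 of them in exon 28, 199 and 215 nt before the stop codon, and these were 63 and 47 nt from a junction. Coding motifs more than 100 nt from a junction were few, with 10 in YTHDC1 and 2 in YTHDC2.

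The IGF2BP genes had 15 exons (IGF2BP1 and IGF2BP3) or 16 (IGF2BP2) and no listed site. IGF2BP1 held 150 DRACH and 9 GGACT motifs, IGF2BP2 held 92 and 5, and IGF2BP3 held 93 and 2. Of the GGACT motifs, 7 in IGF2BP1, 1 in IGF2BP2 and 1 in IGF2BP3 were in the 3′ UTR. The one in IGF2BP2 was 143 nt past the stop codon, with a GC content of 65.2% around it. In the GC decile of IGF2BP2 the listed share of all GGACT motifs was 1.94%.

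A coding GGACT was shared by the 3 IGF2BP genes too, in exon 1, 48 nt from its end. It encodes aspartate at codon 43 of IGF2BP1 and IGF2BP3 and at codon 44 of IGF2BP2. Over all protein-coding transcripts the listed share of coding GGACT motifs no farther than 50 nt from a junction was 1.97% (1.77 to 2.19). The windows differ at few bases, with 20 of 21 identical between IGF2BP1 and IGF2BP3, 19 between IGF2BP1 and IGF2BP2, and 18 between IGF2BP2 and IGF2BP3. Here too the GGACT is counted and is identical by choice. The windows are printed as the counterpart of the YTHDF pair, likewise chosen after the values were seen, from GRCh38 at chr17:48997863-48997883 on the plus strand, chr3:185824820-185824840 on the minus strand and chr7:23469973-23469993 on the minus strand.
IGF2BP1 exon 1: gccttcgtGGACTgcccggac
IGF2BP2 exon 1: gccttcgtGGACTaccccgac
IGF2BP3 exon 1: gcgttcgtGGACTgcccggac

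In all, the 9 genes without a site held 1008 DRACH motifs, from 59 to 217 a gene, namely 403 coding motifs, 580 in 3′ UTRs and 25 in 5′ UTRs. Of these, 106 were within 200 nt of a stop codon and 35 were GGACT. Coding DRACH motifs of all protein-coding transcripts were listed in 2.50% of cases more than 100 nt from a junction, and in 0.437% nearer. The 7.33% given above covers only transcripts with a site. For DRACH motifs in UTRs or near stop codons, no share over all transcripts was computed. Each of the 9 had at least 1 GGACT. With ALKBH5 the 10 genes held 39 GGACT motifs, of which 1 was listed, against 5.52% of the GGACT motifs in all protein-coding transcripts. As the YTHDF and IGF2BP genes had 0 listed sites, no listed site could be compared between paralogues.

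**Figure D2:**
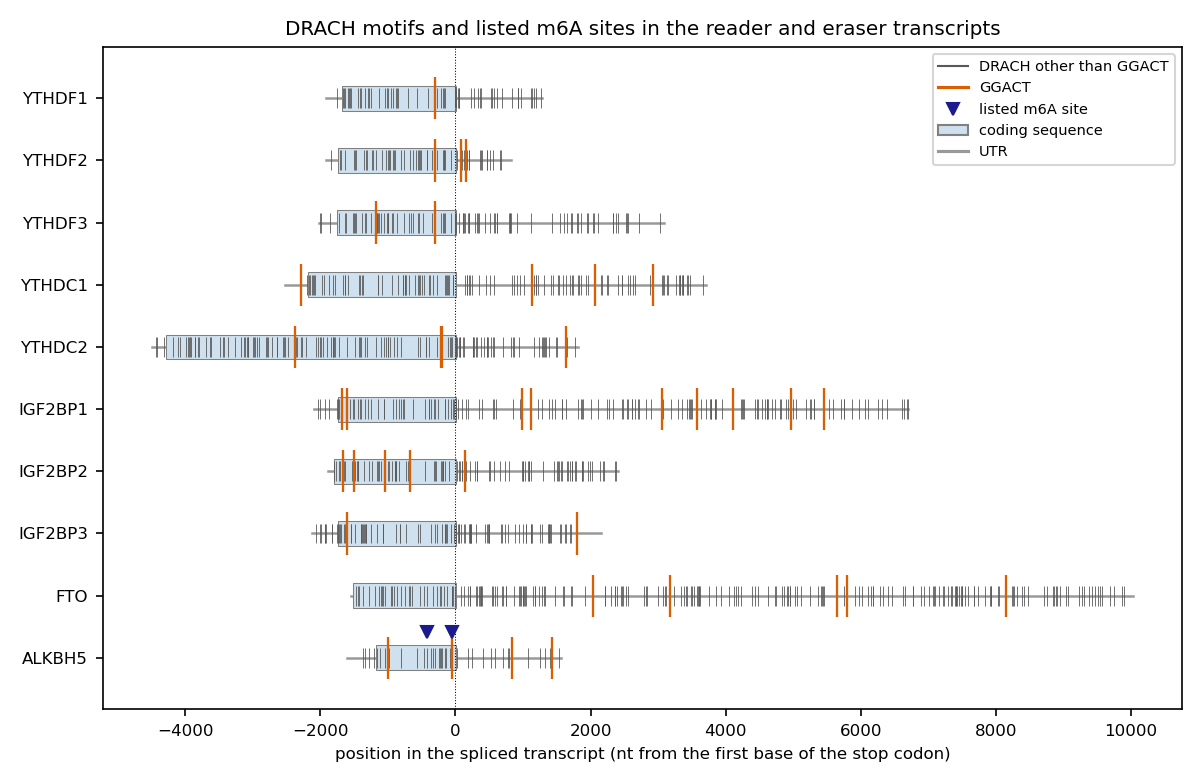
Each row is the chosen transcript of a gene, and the horizontal axis is the position in nt from the first base of the stop codon (dotted line), with the coding sequence as a box and UTRs as lines. Grey ticks are DRACH motifs other than GGACT, orange ticks are GGACT and blue triangles are listed sites, which appear in ALKBH5 alone, 423 and 53 nt before the stop codon.

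Over the genome, 20.3% of 19183 protein-coding genes had at least 1 listed site. Of the readers and erasers 1 of 10 did (10%, 1.79 to 40.4). The interval includes the share of all genes, but over 10 chosen genes it is too wide to show that the shares are alike. Genes with a site held a median of 4, with quartiles of 2 and 7, so ALKBH5 with 2 sites was at the lower quartile. The share with 1 or 2 sites was 36.8%.

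The share of genes with a site rose with the GC content of the transcript up to the ninth decile. Protein-coding genes were sorted by the GC content of the chosen transcript into deciles. In the lowest decile, up to 38.6% GC, 13 of 1919 genes had a site (0.677%, 0.396 to 1.16), and in the ninth, from 58.5 to 62.0% GC, 810 of 1918 did (42.2%, 40.04 to 44.5), against 40.4% in the tenth. The median GC content was 57.1% in genes with a site and 46.5% in genes without. The listed share of GGACT motifs went the same way, from 0.0814% in the lowest decile to 16.04% in the highest.

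ALKBH5, at 57.6%, had the highest GC content of the 10 genes and fell in the eighth decile, where 38.5% of genes had a site. The 9 genes without a site ranged from 38.4% to 50.9%. YTHDF3 (38.4%) was in the lowest decile, and YTHDC2 (40.1%), YTHDC1 (40.3%) and IGF2BP3 (40.5%) were in the second, where 1.98% of genes had a site. YTHDF2 (46.0%) was in the fourth, with 6.62%. FTO (46.3%) and IGF2BP2 (48.9%) were in the fifth, with 12.4%, and IGF2BP1 (49.1%) and YTHDF1 (50.9%) were in the sixth, with 23.4%. The mean of these decile shares over the 10 genes was 12.3%. With 1 of 10 genes sited, the count is too small to separate this from the 20.3% of all protein-coding genes. The only gene with sites was thus also the one with the highest GC content, and the part of GC content in the result was not tested.

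**Figure D3:**
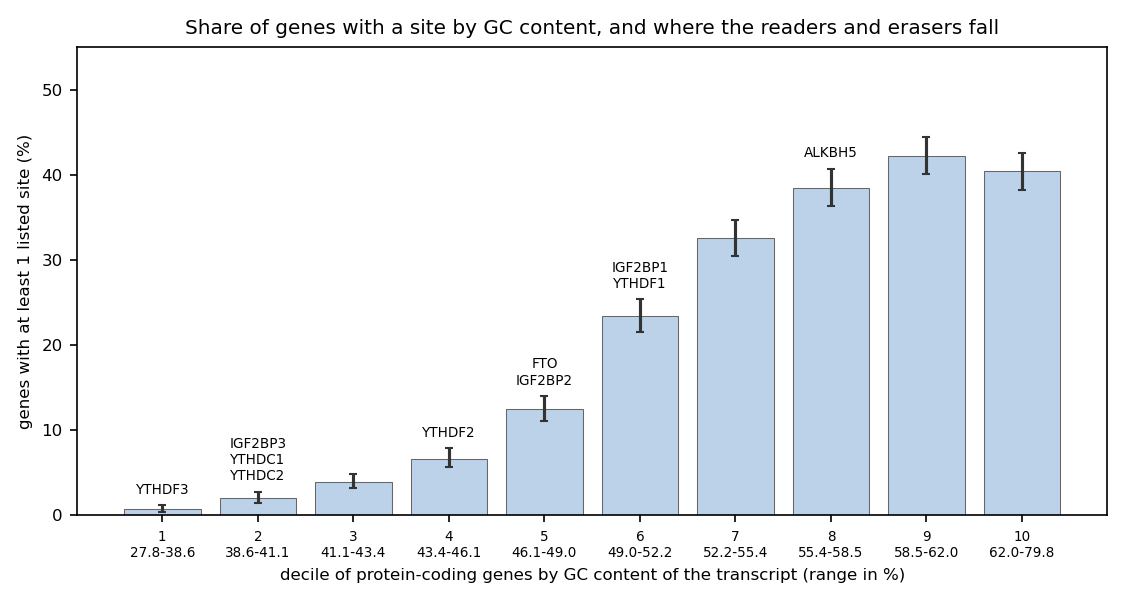
Bars give the percentage of protein-coding genes with at least 1 listed site (vertical axis) in deciles of transcript GC content (horizontal axis, range in %), and error bars are 95% Wilson intervals. The names mark the decile of each reader or eraser: ALKBH5 is in the eighth, where 38.5% of genes had a site, and the other 9 are in the first to sixth, where 0.677% to 23.4% did.

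ALKBH5 also held the fewest DRACH motifs of the 10 genes, 40 against 59 to 217 in the others. Over deciles of protein-coding genes by number of motifs, the share with a site was 16.7% in the lowest, highest at 26.8% in the fourth (36 to 44 motifs), where ALKBH5 lay, and lower in each decile after it, down to 8.78% in the tenth (140 or more). YTHDF1 and YTHDF2 lay in the sixth, with 24.1%, and YTHDF3, IGF2BP2 and IGF2BP3 in the eighth, with 17.4%. YTHDC1 and YTHDC2 lay in the ninth, with 13.5%, and FTO and IGF2BP1 in the tenth. The part of motif number in the result was not tested.

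The rest of the m6A machinery was set beside the readers and erasers, as 4 lists. Of 37 genes, 11 had a site, with 62 sites in all, and the mean share of their GC deciles was 16.04%. The GC content of the 11 ranged from 42.6% to 64.8% and that of the other 26 from 36.3% to 59.4%, so the groups overlap.

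Among 12 writers 2 had a site, against a mean share of 14.1% over their GC deciles and 20.3% of all protein-coding genes. RBM15B, an adaptor that brings the methyltransferase complex to its targets, had 14, all in coding sequence, with scores from 0.536 to 0.904. PCIF1, which methylates the cap-adjacent adenosine, had 2. The catalytic METTL3 and its partner METTL14, the complex members WTAP, VIRMA, ZC3H13, RBM15 and CBLL1, and the separate methyltransferases METTL16, METTL5 and ZCCHC4 had 0. RBM15B and its relative RBM15 were close in GC content, at 55.8% and 54.2%, with 128 and 61 DRACH motifs.

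The other AlkB homologues are the closest relatives of the erasers, and 4 of 7 had a site. ALKBH4 had 7, of which 5 were in the 3′ UTR, ALKBH2, a DNA repair enzyme, had 3, ALKBH7 had 2 and ALKBH6 had 1. ALKBH1, ALKBH3 and the tRNA-modifying ALKBH8 had 0. In ALKBH4 10.9% of 46 DRACH motifs were listed, against 5.00% of 40 in ALKBH5 (1.38 to 16.5). Over all protein-coding transcripts with a site the share was 7.33%. The interval for ALKBH5 includes both other shares. The sited homologues had GC contents from 52.4% to 64.8% and the others from 39.2% to 50.8%, so these small groups did not overlap. Among the readers and erasers the sited group is ALKBH5 alone. Over all protein-coding genes the middle ranges overlapped. The quartiles were 52.4% and 61.2% in genes with a site, and 41.2% and 54.4% in genes without. The mean share of the GC deciles of the 7 homologues was 26.5%.

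Of 11 other proteins described as binding m6A or its surroundings, 3 had a site, where the mean share of their GC deciles was 13.6%. PRRC2A had 17, all coding, 1 of them also in an exon of an unnamed gene on the same strand. SND1 had 1 in the 3′ UTR with a score of 0.965, and ELAVL1, which binds AU-rich elements, had 1 with a score of 0.522. HNRNPA2B1, HNRNPC, RBMX, FMR1, FXR1, FXR2, EIF3A and LRPPRC had 0. The GC content of FXR2 was 59.4%, in the ninth decile, where 42.2% of genes had a site.

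Of 7 partner proteins of readers, 2 had a site, and the mean share of their GC deciles was 12.8%. UPF1, the helicase of nonsense-mediated decay, had 10, with 9 in the 3′ UTR and a median score of 0.822. PABPC1, the cytoplasmic poly(A)-binding protein, had 4 at a GC content of 42.6%. CNOT1, the scaffold of the deadenylase complex, and RIDA, SRSF3, NXF1 and MATR3 had 0.

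**Figure D4:**
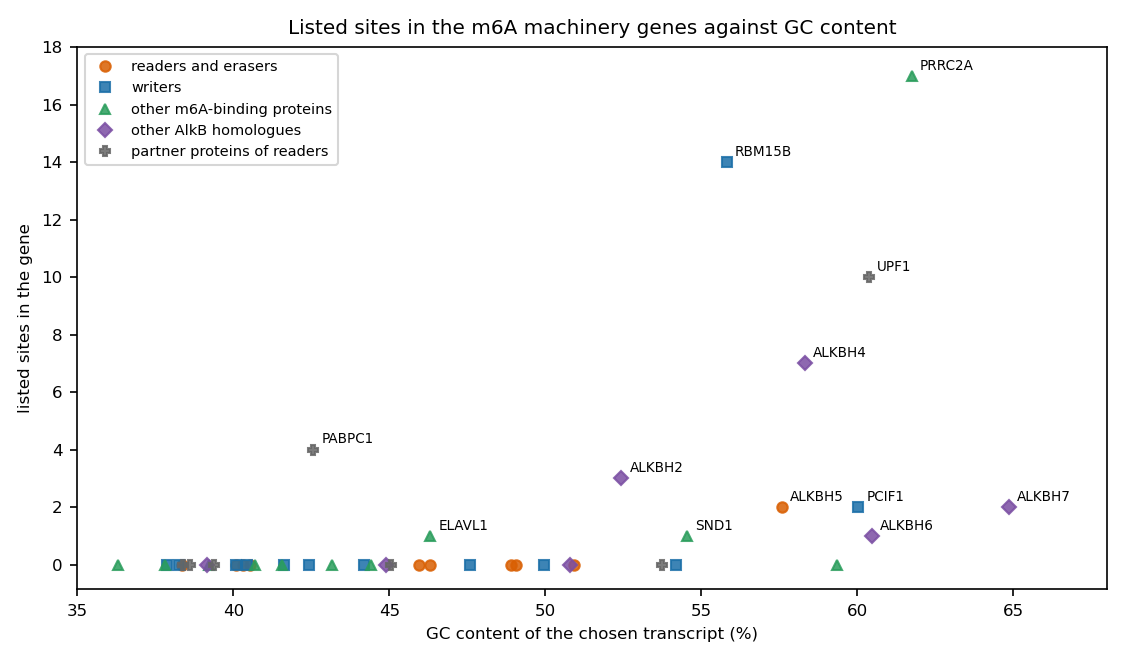
Each point is a gene, with the GC content of its chosen transcript in % on the horizontal axis and its number of listed sites on the vertical axis; colours and shapes give the 5 sets. ALKBH5 is the one reader or eraser above 0, with 2 sites at 57.6% GC, while PRRC2A has 17 and RBM15B has 14.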

How the data were processed

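According to the study's methods and the submitters' processing notes, the authors aligned miCLIP2 reads of C643 cells to GRCh38 with STAR 2.7.3a. They removed duplicates with UMI-tools 1.0.0 and called peaks with PureCLIP on each replicate. Peaks present in more than 1 replicate were kept, and those at adenosines were classified with m6Aboost. The deposited list pools the 3 replicates and gives each site a prediction score, a fraction between 0 and 1, with no read counts, so depth per site is unknown. Peaks need reads, and unique mapping, the antibody and the classifier all shape which sites are listed.

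Positions are 1-based. All 18789 sites matched an A in the reference. Gene models were those of GENCODE 44, which is newer than the authors' release and on their assembly. For each gene the longest spliced coding transcript was chosen among those of annotation level up to 2 whose transcript support level, where one exists, is up to 3. For all 10 readers and erasers it was also the Ensembl canonical one. A site in overlapping genes counted for each. Where a symbol had several entries, the one with the longest transcript was used. Placement was checked by mapping planted transcript positions to the genome and back, with 1000 of 1000 recovered. This check does not cover the reading of the list or the assignment of sites to genes. Python 3.11.15, numpy 2.4.6 and pysam 0.24.0 were used.

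All results are descriptions. The genes and lists were chosen with earlier results of these data known. Every reader and eraser site was named, and of the other lists the 3 genes with the most sites and the genes without one; ALKBH6, the fourth of its list with a site, was named beside them. Alternatives changed the score threshold, the transcript, the motif and the windows.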

Additional observations from a re-analysis of the deposited data

How the results depend on the processing

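The 2 sites in 1 gene remained at a score of at least 0.7 and when sites in introns were left out, and both sites lay at RAC as at DRACH. Windows of 400 nt around the stop codon, 50 nt around junctions and 100 nt between sites left the counts as they were. The Ensembl canonical transcript was the chosen one for all 10 genes, so that alternative says nothing about other transcripts, and the exon 1 site of ALKBH5 is exonic in 1 of 3. Without ALKBH5, the only gene with sites, 0 sites were left, so the shares and the median score have no value there. The listed share of motifs, 5.00% for the DRACH motifs of ALKBH5, was 25% when GGACT alone was counted and 0.191% when the motifs of all 10 genes were counted, since both change the motifs in the denominator. The following were chosen after seeing the data. The share of protein-coding genes with a site was 17.6% at a score of at least 0.7, and 19.9% with exons only. Of the 37 genes on the other lists, 9 and 11 then had a site. Pooling left no replicate that could be left out. No paired analysis was possible because all samples form a single group. With 2 sites, the position, motif and score of the ALKBH5 sites are single values, and a gene without listed sites may still carry m6A.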
